A study of Homo sapiens with 4 samples.

Results

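Among the accessible sites that ME-1 leukaemia cells kept open with and without AI-10-49, 890 held a lower place in the ranking of sites in both treated libraries than in both control libraries. These falling sites were chosen from 28368 autosomal regions, called shared sites here, that carried a peak in all 4 libraries. Within each library the shared sites were ranked by the −log10 p-value of their highest peak, and the rank was written as a percentile from 0 (weakest) to 100 (strongest). A site was counted as falling when the lower of its 2 DMSO percentiles exceeded the higher of its 2 AI-10-49 percentiles by at least 20 points. Falling sites were thus 3.14% of the shared sites, and 1034 sites (3.64%) rose by the same rule in the opposite direction. The percentiles chose the falling sites, so the percentiles and every height taken from the same peaks are given as description, without a test.

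All libraries came from ME-1, an established line of human acute myeloid leukaemia cells that carry the inv(16) rearrangement. The fusion protein of that rearrangement, CBFβ-SMMHC, is thus shared by control and treated cells. Control cells received the solvent DMSO, and treated cells received AI-10-49 at 1 µM, both for 6 h, with 2 libraries per group that the series' design text places in separate experiments. Open chromatin was mapped by ATAC-seq, where a transposase, Tn5, cuts and tags accessible DNA.

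As background, RUNX1 binds DNA together with CBFβ and controls genes of blood stem and progenitor cells. CBFβ-SMMHC holds RUNX1 in an abnormal complex, and AI-10-49 was made to block that contact, which frees RUNX1 to act at its sites again. Accessible sites mark promoters, enhancers and insulators, and the number of Tn5 cuts at an enhancer generally follows the binding of transcription factors and of the remodelling complexes they recruit. A site can lose height without closing, and a falling rank can record such a partial loss.

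Depth differed between the groups. The control lists held 65614 and 63390 autosomal peaks, and the treated lists 47747 and 52121. The most frequent background level was 0.0613 and 0.060 reads per base in the control libraries, against 0.0965 and 0.108 in the treated ones. At shared sites the median summit carried 8 and 7 reads in DMSO replicates 1 and 2, and 9 and 10 reads in AI-10-49 replicates 1 and 2. Ranks within a library do not carry this overall gap, but they rest on few reads.

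In the DMSO libraries the falling sites sat in the upper middle of the ranking, and in the AI-10-49 libraries they sat near the bottom. Their median percentile was 63.8 in DMSO replicate 1 and 66.3 in replicate 2. It was 20.6 in AI-10-49 replicate 1 and 20.9 in replicate 2. The 2 replicates of a treatment lay close together at these sites, with a median difference of 8.39 points between the DMSO libraries and 7.34 between the AI-10-49 libraries, against 15.3 and 12.4 over all shared sites. The rule itself favours such closeness. The median gap between groups was 27.1 points, 317 sites fell by at least 30 points, 95 by at least 40 and 27 by at least 50. The choice on these same percentiles enlarges the distance between the groups. When sites were chosen without 1 DMSO library, the median percentile in that library was 38.8 (replicate 1) or 40.6 (replicate 2). Chosen without 1 AI-10-49 library, it was 41.9 (replicate 1) or 43.5 (replicate 2).

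**Figure D1:**
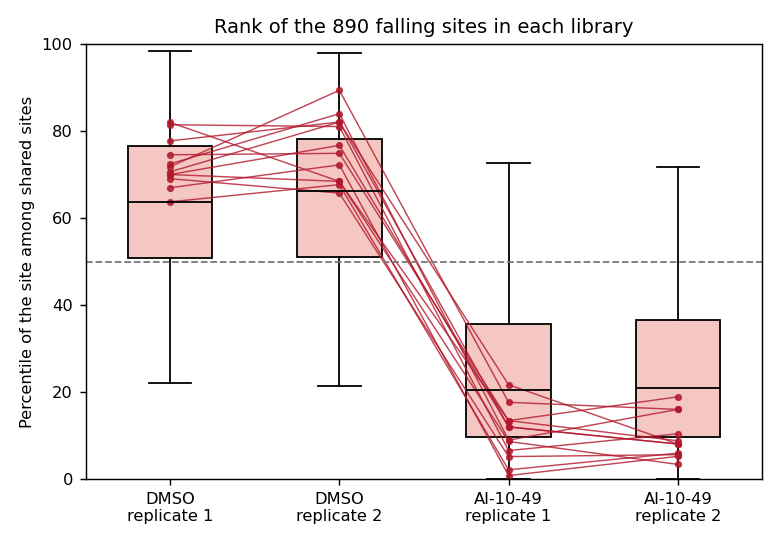
Percentile of the falling sites among shared sites (vertical axis, 0 to 100) in each of the 4 libraries; boxes give median and quartiles, whiskers the lowest and highest site, the dashed line the middle of all shared sites, and red lines the 12 sites with the largest fall. Medians of 63.8 and 66.3 in the DMSO libraries drop to 20.6 and 20.9 after treatment.

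Falling sites at this size were more numerous between treatments than between mixed groups of libraries. The 4 libraries can be split 2 and 2 in 3 ways, and the same rule was applied to each in both directions. The split by replicate number gave 596 sites higher in both replicates 1 (2.1% of shared sites) and 617 higher in both replicates 2 (2.17%). The remaining split gave 571 sites higher in DMSO replicate 1 with AI-10-49 replicate 2 (2.01%), and 625 (2.2%) in the opposite direction. The 890 falling sites were therefore 1.42 times the largest and 1.48 times the mean of these 4 counts, and the rising sites were 1.65 times the largest. Differences of this size thus also arose between libraries grouped across treatments, 602.25 times per direction on average. Which of the falling sites belong to this number cannot be told from the lists. With only 3 splits, no test of this excess could pass a threshold of 0.05. The excess was not kept with 1 AI-10-49 library left out. Sites then need only lie 20 points apart in 2 libraries against 1, and the count rose to 2674 (without replicate 1) and 2793 (without replicate 2). These were 0.826 and 0.907 times the largest count of the other groupings, which then set 1 DMSO library apart. With a DMSO library left out, the ratio was 1.35 (without replicate 1) and 1.2 (without replicate 2). The reason for this difference was not tested.

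The excess was relatively larger at deeper falls. At a required difference of 10 points there were 2130 falling sites against 1574 to 1698 for the mixed splits. At 30 points there were 317 against 190 to 212, and at 50 points there were 27 against 5 to 13. The single deepest fall was 70.6 points between treatments and 54.6 to 59.4 points in the mixed splits.

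**Figure D2:**
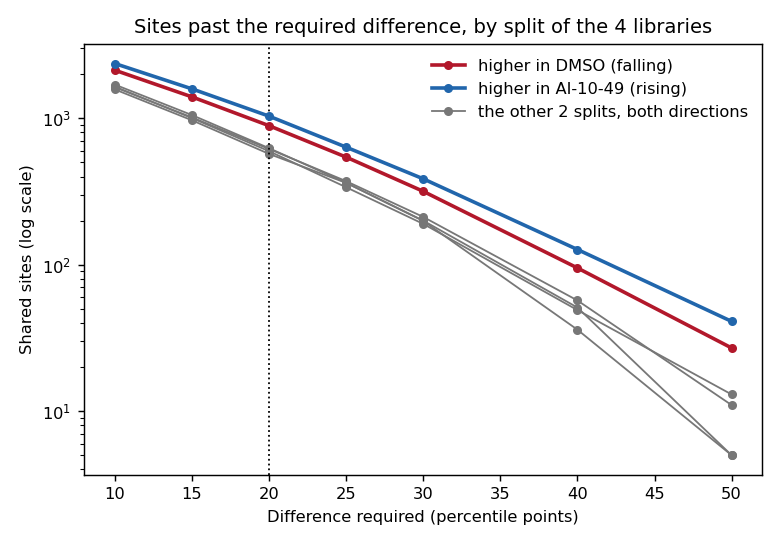
Number of shared sites (vertical axis, log scale) whose lower percentile in one pair of libraries exceeds the higher percentile in the other pair by at least the difference on the horizontal axis (percentile points). The line for falling sites passes through 890 at the dotted 20-point mark, above the 571 to 625 of the mixed splits and below the 1034 rising sites.

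Read counts describe the same sites without adjustment for depth. They were recovered from the same peak values that set the ranks, so they are not separate support. Falling sites had a median of 9 reads at the summit in each DMSO library and 6 in each AI-10-49 library, while the median over all shared sites went up, from 8 and 7 to 9 and 10. The ratio of summed AI-10-49 reads to summed DMSO reads had a median of 0.684 at falling sites (quartiles 0.611 and 0.762) and 1.25 over all shared sites. At 695 falling sites (78.1%) both AI-10-49 libraries had fewer reads than both DMSO libraries, which was the case at 3.81% of all shared sites. The other falling sites lost rank without losing reads in every comparison, while reads over all shared sites went up.

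Relative to the library's own background, the ratio of treated to control was lower than in reads, at falling sites and over all shared sites alike. The summit stood 147 and 150 times above the background in control cells, and 62.2 and 55.8 times in treated cells. Over all shared sites control cells reached 131 and 117 times, and treated cells 93.3 and 92.9 times. The median ratio of treated to control height was 0.406 at falling sites and 0.746 over all shared sites. All 890 falling sites stood lower over background in both AI-10-49 libraries than in both DMSO libraries, against 47.9% of shared sites, and the rule left little room for another outcome. The local background that the peak caller set around each site moved with the height: its median ratio between treatments, relative to the library's background, was 0.71 at falling sites and 0.849 over all shared sites. Its part in the fall was not tested.

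**Figure D3:**
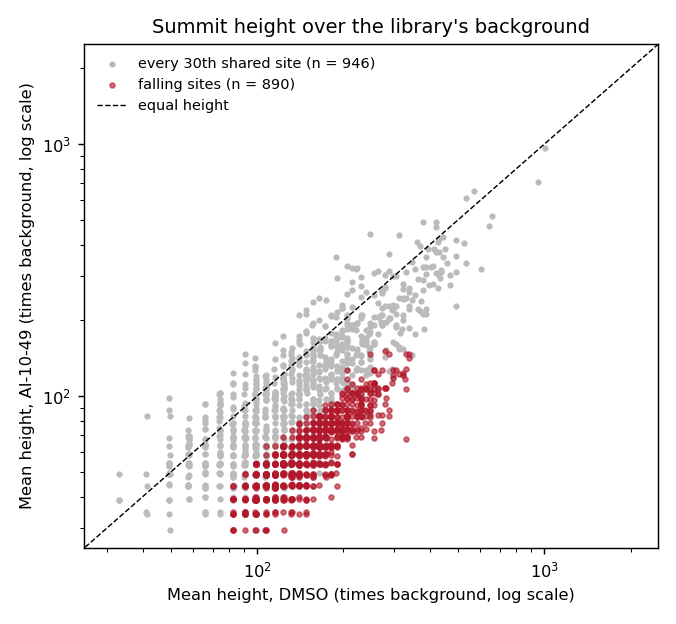
Mean summit height of a site over the library's background in the DMSO libraries (horizontal axis, log scale) and in the AI-10-49 libraries (vertical axis, log scale), for the 890 falling sites (red) and for 946 shared sites taken at a regular interval (grey). Falling sites form the lower edge of the cloud, below the dashed line of equal height, with a median ratio of 0.406 against 0.746 over all shared sites.

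Counting error is large for single sites. A summit of 9 reads has an exact 95% Poisson interval of 4.12 to 17.1 reads, and one of 6 reads has 2.20 to 13.1. The intervals cover counting error only and treat the background as known.

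By the mean percentile of the 4 libraries, 708 of them (79.6%) lay between 20 and 60, where 53.7% of shared sites lay. The share of falling sites was highest, at 5.42%, among shared sites with a mean percentile of 30 to 40, and it was 1.80% from 70 to 80 and 0.169% from 80 to 90. No falling site had a mean percentile above 90 or below 10, where a gap of 20 points cannot be reached. The rule itself thus favours the middle, and the share of rising sites, 5.82% to 6.19% from 30 to 60, was also highest there. At least 10 reads in both DMSO libraries were found at 295 falling sites (33.1%), against 25.5% of shared sites. At least 20 reads in both were found at 2 falling sites, and at 1188 of all shared sites. At most 5 reads in both AI-10-49 libraries were found at 232 (26.1%), against 6.81% of shared sites.

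The deepest fall was at chr4:15233285-15233390 (hg19), a narrow site of 106 bp. Its percentile was 81.5 and 81.0 in control cells, and 6.6 and 10.5 in treated cells. The summit carried 12 and 11 reads under DMSO and 4 and 5 under AI-10-49, so the groups did not overlap. Summed over libraries it stood 190 times above the background under DMSO (95% interval 120 to 285) and 44.1 times under AI-10-49 (20.2 to 83.7). These intervals lay apart, which the choice of the deepest fall favours, while the intervals of most falling sites overlapped. The peak listed there was 105 and 106 bp wide under DMSO, and 62 and 92 bp wide under AI-10-49.

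Next in depth were chr11:35326140-35326251 and chr6:30565194-30565350, the only other sites with a gap above 60 points. The first had 9 and 9 reads under DMSO and 3 and 4 under AI-10-49, and its percentile went from 67.0 and 72.2 to 0.9 and 5.3. In AI-10-49 replicate 1 this left it among the weakest of all shared sites. The second had 10 and 8 reads under DMSO and 4 and 4 under AI-10-49, with percentiles of 69.1 and 65.7 against 5.2 and 5.7.

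The other 9 sites of the 12 with the largest gap followed the same pattern, under DMSO reads of 8 to 13 and AI-10-49 reads of 4 to 6. At chr17:39608671-39608824 the reads were 8 and 9 under DMSO and 4 and 4 under AI-10-49. At chr14:27178301-27178468, which had no other shared site within 100 kb, they were 9 and 10 against 4 and 4. At chr6:169357078-169357238, equally alone, they were 8 and 8 against 4 and 4. Both of the isolated sites ended at the same percentiles, 12.1 and 8.1, since sites with the same reads and background tie in rank. The site chr1:172612693-172612939 went from 9 and 9 reads to 4 and 5, and chr7:8165426-8165753 from 10 and 13 to 5 and 6. The site chr1:77542600-77542744 went from 10 and 10 reads to 5 and 4, and chr12:65063168-65063336 from 10 and 10 to 5 and 6. At chr1:209739548-209739647 the reads were 12 and 9 against 5 and 5, and at chr10:91020244-91020407 they were 10 and 13 against 5 and 6. None of the 12 overlapped in percentile between treatments, which their choice as the largest gaps entails. The 95% intervals of their summed heights lay apart at 11 of the 12, which the same choice favours. Such intervals lay apart, lower under AI-10-49, at 205 of all falling sites (23.0%) and at 2.13% of all shared sites.

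The strongest falling sites lost height from near the top of the ranking. At chr5:159232171-159232395 the summit carried 19 and 21 reads under DMSO, in the percentiles 93.7 and 98.0. With AI-10-49 it carried 5 and 9 reads, in the percentiles 13.9 and 48.5. Its height over background went from 330 times (95% interval 236 to 449) to 68.6 times (37.5 to 115). The 2 AI-10-49 libraries differed from each other by more points here than at most falling sites. At chr7:79917582-79917809 the reads were 19 and 16 under DMSO and 8 and 9 under AI-10-49, and the percentiles 94.7 and 92.9 became 54.1 and 44.8. At chr11:122720731-122720895 the reads were 23 and 17 under DMSO and 9 and 13 under AI-10-49, in the percentiles 96.3 and 93.2 against 48.8 and 65.9.

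A further group of strong sites fell by little more than the required difference and stayed above the middle of the ranking after AI-10-49. At chr5:179562124-179562423 the reads were 22 and 18 under DMSO and 14 and 16 under AI-10-49, in the percentiles 94.4 and 93.0 against 72.7 and 71.2. At chr6:154490672-154490975 they were 21 and 18 against 10 and 15, and at chr1:201851754-201851941 they were 19 and 17 against 12 and 12. The sites chr18:59405847-59406103, with 18 and 18 reads against 12 and 14, and chr5:156536075-156536320, with 21 and 20 against 14 and 16, belonged to the same group. At chr20:18612986-18613108 the DMSO libraries differed most, with 26 and 14 reads against 11 and 13 under AI-10-49. These sites remained well open: their heights under AI-10-49 were 104 to 149 times the background. Their place among falling sites depended on the ranking. Ranked among all peaks of a list, all of them missed the required 20 points, with gaps of 12.5 to 15.7. With fold enrichment ranked, chr5:179562124-179562423 and chr20:18612986-18613108 had 19.7 each. With reads over background ranked, chr5:179562124-179562423 had 18.1 and chr5:156536075-156536320 had 18.2.

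Around the threshold, sites on both sides had similar values. The falling sites closest to it, chr3:156966450-156966632, chr14:102563038-102563130 and chr3:42642643-42642791, had 6 and 5, 6 and 4, and 8 and 7 reads under DMSO. With AI-10-49 they had 4 and 5, 4 and 3, and 6 and 6. Just outside lay chr6:45682579-45682711, with 7 and 11 reads against 6 and 5, chr2:97505114-97505366, with 7 and 8 against 5 and 7, and chr8:73992873-73993259, with 16 and 13 against 9 and 13. A further 510 shared sites had a gap of 15 to 20 points.

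Falling sites carried narrower peaks than other shared sites, a property the ranking did not use directly. The median peak width was 139 and 136 bp in the DMSO libraries, against 156 and 148 bp over all shared sites. In the AI-10-49 libraries it was 120.5 and 132 bp, against 153 and 164 bp. Since width may differ with strength, the DMSO value was also set beside non-members weighted to the same mean percentile, where the median was 144 bp against 140 bp at falling sites. With AI-10-49 the same comparison gave 150 and 127 bp. Strength was not matched there, since the rule places falling sites lower in the AI-10-49 libraries than their mean percentile. Peaks were narrower in both AI-10-49 libraries than in both DMSO libraries at 250 falling sites (28.1%), against 14.8% of shared sites, and wider at 100 (11.2% against 21.4%). Rising sites were broader, with a median region of 235.5 bp against 182 bp at falling sites and 212 bp over all shared sites.

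A single summit was the usual form. Peaks with more than 1 summit made up 3.60% and 3.26% at falling sites in the DMSO libraries, where all shared sites had 10.8% and 8.93% and rising sites 10.6% and 7.54%. Unlike the widths, these shares were not weighted to the members' strength. The summits of the 4 libraries kept their place, lying within 100 bp of each other at 89.9% of falling sites and 84.4% of shared sites. The median spread of the 4 summits was 43 bp, against 45 bp.

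By chromosome, falling sites were least frequent on chromosomes 19, 22, 17 and 16. On chromosome 19, 14 of 1169 shared sites fell (1.20%), and 94 (8.04%) rose. On chromosome 17 the numbers were 14 of 860 (1.63%) and 80 (9.30%), on chromosome 22 they were 6 of 377 (1.59%) and 30 (7.96%), and on chromosome 16 they were 15 of 753 (1.99%) and 42 (5.58%). Grouped after their values were seen, these 4 chromosomes held 5.51% of falling sites, 11.1% of shared sites and 23.8% of rising sites. Gene density alone did not order the chromosomes: chromosome 11, at 9.64 genes per Mb denser than chromosome 16 (9.47), had 3.63% falling sites, and chromosome 18, at 3.46 genes per Mb, had 2.27%. On the other 18 autosomes pooled, 841 sites fell and 788 rose, 3.34% and 3.13% of the shared sites.

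Chromosome 8, which carries MYC, had the highest share of falling sites, 81 of 1905 (4.25%), and the lowest share of rising sites, 36 (1.89%). Chromosomes 5 (4.14%), 4 (4.02%) and 3 (3.97%) followed for falling sites. The median of mean DMSO minus mean AI-10-49 percentile over all shared sites of a chromosome ran from 3.67 points on chromosome 8 to -7.58 on chromosome 17. The median thus lay highest on the chromosome with the highest falling share. It includes the falling and rising sites, and over all shared sites the quartiles of this difference were -11.4 and 11.53 points. Across the 22 autosomes the falling share went down with protein-coding genes per Mb, with Pearson's r of -0.65 and Spearman's rho of -0.60. With chromosomes 19 and 17 left out, whose gene density lies farthest from the median, r was -0.43. The rising share went up, with r of 0.76 and 0.65 without the same chromosomes. All points come from the same 4 libraries and chromosomes also differ in base composition, so these values only describe the pattern.

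**Figure D4:**
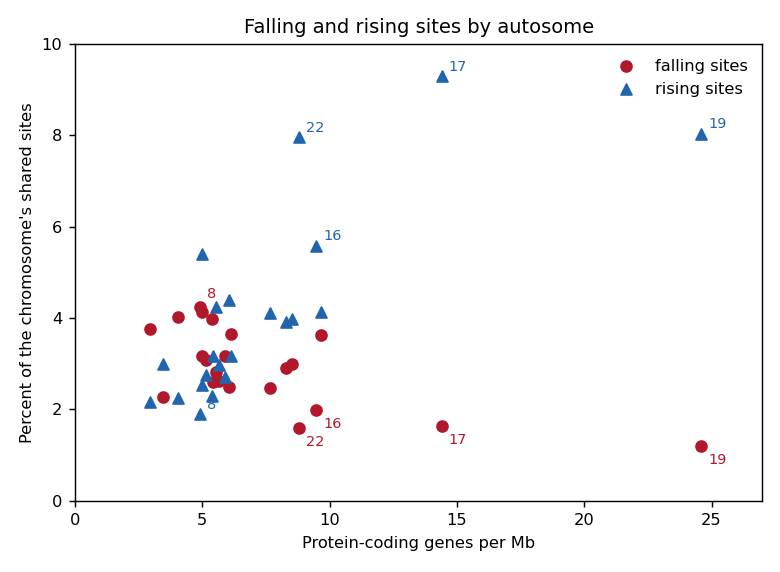
Share of a chromosome's shared sites that fell (red circles) or rose (blue triangles), in percent (vertical axis), against protein-coding genes per Mb (horizontal axis), for 22 autosomes. Chromosome 19 lies far right with 1.20% falling and 8.04% rising, and chromosome 8 has 4.25% falling and 1.89% rising.

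At short distances, falling sites lay slightly apart from other open sites. The nearest shared site was a median of 18957 bp away, against 17787 bp for all shared sites and 12077 bp for rising sites. Another shared site lay within 10 kb of 262 falling sites (29.4%), 34.4% of shared sites and 44.9% of rising sites. Within 1 kb the shares were 5.62%, 9.37% and 16.4%. Weighting non-members to the members' strength left these references nearly as they were, at 34.6% and 9.43%. Within 100 kb no such difference was seen. The median number of other shared sites there was 3 for falling sites and for all shared sites, and 8.54% and 8.81% had none.

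The sites around a falling site mostly did not fall with it. Among the 187 shared sites 5 to 10 kb from a falling site, the median percentile difference between treatments was 1.64 points (quartiles -8.27 and 14.2), against -0.11 points for sites at that distance from any shared site. Falling sites made up 10 of these 187 (5.35%), against 3.04%. They were 2 of 48 within 1 kb (4.17%), against 1.94%, and 4 of 80 from 1 to 5 kb (5.0%), against 2.6%. From 10 to 50 kb they were 56 of 1289 (4.34%), against 3.10%, and from 50 to 100 kb they were 24 of 1419 (1.69%), against 3.01%. Within 1 kb the median of 48 neighbours was -4.29 points, close to the -3.62 points of neighbours within 1 kb of any shared site. These medians are small beside the 20 points that the rule asked of the falling sites.

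**Figure D5:**
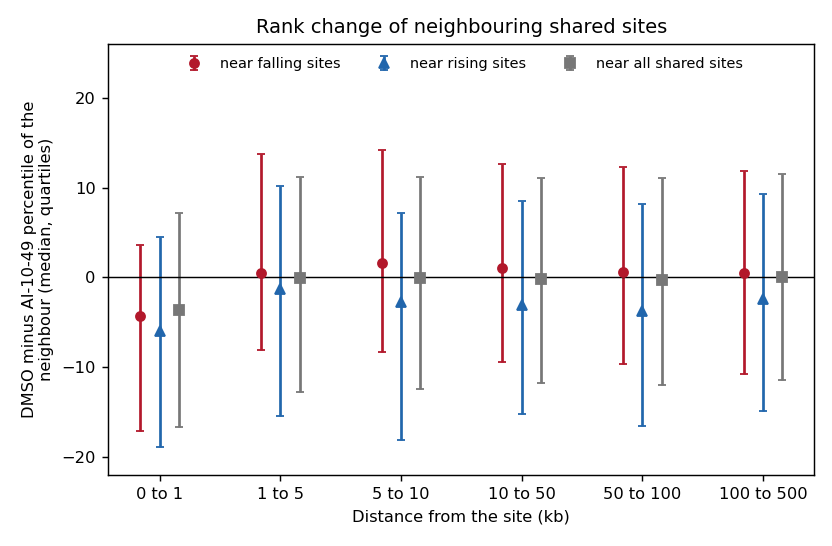
Mean DMSO minus mean AI-10-49 percentile of shared sites (vertical axis, points; median with quartiles) at 6 ranges of distance in kb (horizontal axis) from falling sites (red), rising sites (blue) and any shared site (grey). Near falling sites the medians stay between -4.29 and 1.64 points, and the quartile ranges overlap those of the other sets at every distance.

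By their midpoints, 16 falling sites lay within 10 kb of another one, in 8 pairs. Among 28346 pairs of neighbouring shared sites, at any distance, both fell in 35 and both rose in 65. The closest pair of falling sites was on chromosome 3, with midpoints 670 bp apart. There chr3:122694146-122694463 went from 14 and 14 reads under DMSO to 6 and 9, and chr3:122694893-122695055 from 9 and 15 to 6 and 8. The next pair, on chromosome 1, consisted of chr1:183439318-183439504, with 12 and 10 reads against 10 and 8, and chr1:183440890-183441184, with 11 and 10 against 8 and 10. In that pair the reads of both treatments were close, while the median over all shared sites went up.

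On chromosome 18, chr18:73368037-73368254 had 7 and 8 reads against 6 and 4, and chr18:73370410-73370547 had 8 and 7 against 5 and 6. On chromosome 14, chr14:61905923-61906080 had 13 and 11 reads against 8 and 8, and its partner chr14:61911040-61911155 had 8 and 7 against 6 and 5. On chromosome 5, chr5:35856788-35857070 had 14 and 16 reads against 8 and 8, and chr5:35863413-35863584 had 12 and 8 against 6 and 6. On chromosome 11, chr11:102157985-102158161 had 14 and 12 reads against 10 and 11, and chr11:102164754-102164979 had 7 and 10 against 5 and 5. The midpoints of the last 3 pairs were 5096, 6569 and 6793 bp apart.

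Over longer distances falling sites were spread widely. Of 2601 bins of 1 Mb with a shared site, 721 held a falling site, and 581 of these held exactly 1. There were 5 bins with 4 falling sites, a number no bin exceeded, and none of these 5 held a rising site. They were chr3:149000001-150000000 (4 of 16 shared sites), chr6:20000001-21000000 (4 of 18), chr11:121000001-122000000 (4 of 18), chr2:136000001-137000000 (4 of 21) and chr8:61000001-62000000 (4 of 30), and were singled out after their values were seen. In the bin on chromosome 6, chr6:20418158-20418364 fell most, from 9 and 9 reads under DMSO to 5 and 5, and chr6:20410030-20410169 went from 5 and 5 reads to 3 and 3.

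Sites listed under a single treatment were no more frequent around falling sites than around other shared sites. A region listed in both DMSO libraries and in neither AI-10-49 library lay within 10 kb of 34 falling sites (3.82%), against 4.56% of shared sites. A region listed only in both AI-10-49 libraries lay that near to 32 (3.60%), against 3.90%.

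In the domain of MYC, whose protein drives cell growth and is the subject of the series, chr8:128000001-131000000, 3 of 50 shared sites fell and 2 rose, where 3.14% and 3.64% of all shared sites and 4.25% and 1.89% of those on chromosome 8 did so. The 3 were named after their values were seen. At chr8:128004014-128004238 the reads were 14 and 16 under DMSO and 8 and 11 under AI-10-49, at chr8:129060752-129060928 they were 23 and 17 against 14 and 12, and at chr8:130765948-130766151 they were 8 and 8 against 6 and 5. The gap of chr8:128004014-128004238 was 18.6 points among all peaks of a list. That of chr8:129060752-129060928 was 16.8 with reads over background ranked. Within 100 kb of the approximate MYC position 0 of 6 shared sites met the rule, with a largest gap of 5.7 points. By approximate positions, none fell within 100 kb of RUNX1 (10 shared sites, 1 rising), CBFB (7, with 0 rising) or MYH11 (5, with 1 rising). With 3.14% of all shared sites falling, so few sites do not set these genes apart.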

How the data were processed

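ATAC-seq peak lists of 4 ME-1 libraries were used, 2 with DMSO and 2 with AI-10-49, grouped by sample title. Per the submitters' processing notes the build is hg19 and cutadapt 1.3, Bowtie2, Picard 1.96, MACS2 2.1.0 and deepTools were used, and neither their roles nor the peak settings are stated there. The deposited lists give, per peak, a fold enrichment ratio and −log10 values of p and q, written by the authors' caller for each library. Total reads are not given in the sources used here.

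Rows with equal coordinates were collapsed to the one with the highest −log10 p-value, and autosomal peaks overlapping by 1 bp or more were merged across lists. A region's value was its highest peak, and ties shared their average rank. Reads at a summit and the background, in reads per base, were recovered from the fold and p-value under a Poisson model (tolerance 0.001), which gave whole reads for 99.99% of peaks. The ranking and this recovery were tested on simulated data. Python 3.11.15, numpy 2.4.6, scipy 1.17.1 and pandas 2.3.3 were used.

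No test of treatment was made: the rule used the contrast, and regions are not replicates. Nothing in the labels ties replicate numbers of the 2 groups. The sites named are the 12 with the largest gap, the 6 with the highest lower DMSO percentile, the 6 with the highest higher AI-10-49 percentile, the 6 closest pairs within 10 kb, 3 on each side of the threshold, and any near MYC, RUNX1, CBFB or MYH11, whose approximate positions came from general knowledge. The 3 sites of the MYC domain, the 5 bins of 1 Mb and the 2 sites in the bin on chromosome 6 were named after their values were seen. Members and rules were chosen with earlier results of these data known. Genes per Mb were counted in a RefSeq table of GRCh38.p14 without its coordinates, per length up to the last hg19 peak. Sequence and annotation of hg19 were not used here, so motifs and nearest genes were not analysed. Poisson intervals (95%, exact) cover counting error only. Alternatives changed the ranked value, region definition, threshold, ties, chromosomes, pairing and libraries.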

Additional observations from a re-analysis of the deposited data

How the results depend on the processing

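The count of 890 falling sites stayed within 1.5 times, and above every mixed split, with fold enrichment ranked (816 sites, of which 759 overlapped the 890), with reads over background ranked (678, 603), with summits within 150 bp (817) and with 50% reciprocal overlap (637, 609). It moved further when peaks needed a −log10 q-value of 5 or more (572 sites of 16322, with 384 of the 890, a share of 43.9% of falling and rising sites) and, by construction, with a required difference of 10, 15, 25 or 30 points (2130, 1400, 543 and 317). Ranking among all peaks of a list gave 1376 falling sites, turned the falling share from 46.3% to 83.2% and raised the ratio to the mixed splits from 1.42 to 2.52. The DMSO lists are longer, and the cause was not tested. Leaving out each library loosens the rule. The count was then 2674 to 3305, the falling share 48.2% to 51.2% and the ratio 0.826 to 1.35, with a ratio below 1 without AI-10-49 replicate 1 (0.826) or 2 (0.907), and a share of 51.2% without AI-10-49 replicate 2. With the replicate block, asking for 20 points within each same-numbered pair only, 1401 sites fell, and 1406 with crossed numbers. Replicate differences of the 2 groups were uncorrelated over sites (r = 0.0053). With few reads per site, this cannot tell whether libraries of the same number belong together. With at least 5 reads in every library, added after seeing the data, 626 fell against 308 to 376 in mixed splits, and 695 had fewer reads in both AI-10-49 libraries. Of 36 named sites, 33 kept a gap of 20 points with fold ranked, 31 with reads over background and 28 among all peaks. Few reads per site limit every single call.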
